A study of Mus musculus with 6 samples.

Results

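Cadherins and the protocadherins that lie outside the protocadherin gene clusters are cell surface proteins. A list of 31 of their genes, among 32285 genes counted in the libraries, is described here in sympathetic, parasympathetic and pelvic ganglia. The members were taken by gene symbol from a list of 5 type I cadherins, 13 type II cadherins, the GPI-anchored Cdh13, 4 delta-1 protocadherins, 5 delta-2 protocadherins and 3 other protocadherins, and all 31 symbols were found. The rule used symbols and no measured value of the libraries. Cadherins bind cadherins of neighbouring cells through extracellular repeats that need calcium, and the classical members, types I and II, are tied to the actin skeleton by catenins inside the cell. Delta protocadherins share the repeats but not the catenin binding tail, and Cdh13 has no cytoplasmic tail and is held in the membrane by a lipid anchor. In the nervous system the family is known for sorting neurons into groups, for axon growth and for holding glial and vascular sheets together, and a cell type is often described by the combination of members it carries.

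The study asked how neurons of the pelvic ganglion relate to those of sympathetic and parasympathetic ganglia. Whole ganglia of mouse pups at postnatal day 5 were dissociated and single cells were counted with the 10x Genomics method in 6 libraries. Stellate, coeliac and lumbar are sympathetic ganglia and sphenopalatine is a parasympathetic one, with 1 library each, and the pelvic ganglion gave 2, named pelvic_1 and pelvic_2. Stellate, sphenopalatine and pelvic_1 were made in round 1, and coeliac, lumbar and pelvic_2 in round 2, with another chemistry and at another site. All animals carried a Cre driver and the RosatdT reporter, in which Cre switches on a red fluorescent protein. Every group shares this genotype and age and no sort for the fluorescence is described, and the preparations also held glial, vascular and connective tissue cells. How many pups entered a library is not given in the labels.

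Between 39353313 and 113352559 unique molecular identifiers (UMIs, each standing for 1 captured transcript) were deposited per library, and 21442 droplets were retained. Marker genes outside the family divided them into 7052 neurons, 8230 glial cells, 570 endothelial cells, 588 mural cells, 3066 fibroblasts and 500 macrophages, with 58 cells of a further class that is not described here, 617 droplets that carried markers of several classes and 761 of no class. The median neuron held 26651 to 108598 UMIs and the median glial cell 3488 to 12133, by library. Levels are given as counts per 1000000 UMIs (CPM) of all cells of a class in a library, so a level of 1 library has a counting error only. For members at 20 CPM or more in neurons, the exact 95% Poisson interval reached at most 9.54% to each side of the level. Libraries of round 1 shared 114 droplet barcodes among them and the other pairs of libraries shared 8. Cells of 1 library share their source, so ganglia with 1 library each were compared by size without a test: a difference was counted where the ratio reached 4 and the higher level reached 20 CPM. Ratios between ganglia were formed only within a round, because round and chemistry cannot be told apart, and the pelvic libraries were also compared with each other across rounds.

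The neurons of all 6 libraries carried 5 members at 20 CPM or more, namely Cdh2, Pcdh1, Pcdh9, Pcdh10 and Pcdh17, and 5 further members reached this level in some of them, namely Cdh6, Cdh11, Cdh13, Pcdh7 and Pcdh19. The number per library lay between 6 and 9 of 31. Another 13 members stayed below 3 CPM in the neurons of every library. Sphenopalatine neurons had the least Cdh6 and the most Cdh2, Cdh11 and Cdh13 of the 6 libraries. Over all neurons of a library, pelvic neurons had a Cdh6 level near that of sympathetic neurons and a Pcdh17 level near that of sphenopalatine neurons. The groups of pelvic neurons described below differed in both members. Some groups high in Pcdh17 were low in Cdh6 or the reverse, and the group led by Calca was high in both. Members whose higher level reached 20 CPM were set beside all such genes, with the percent of genes that differed 4-fold or more in brackets. Differences of 4-fold or more were seen for 3 of 10 members between sphenopalatine and stellate (4.66%) and 1 of 7 between pelvic_1 and stellate (3.52%). They were seen for 2 of 9 between pelvic_1 and sphenopalatine (2.69%) and 3 of 9 between pelvic_2 and coeliac (3.42%). None of 8 differed as much between lumbar and coeliac (0.435%), and none of 9 between pelvic_2 and lumbar (3.43%). In the 2 pelvic libraries, which differ in round, no member differed 4-fold (0.397%), and the largest ratio of a member at 20 CPM or more was 1.96.

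**Figure D1:**
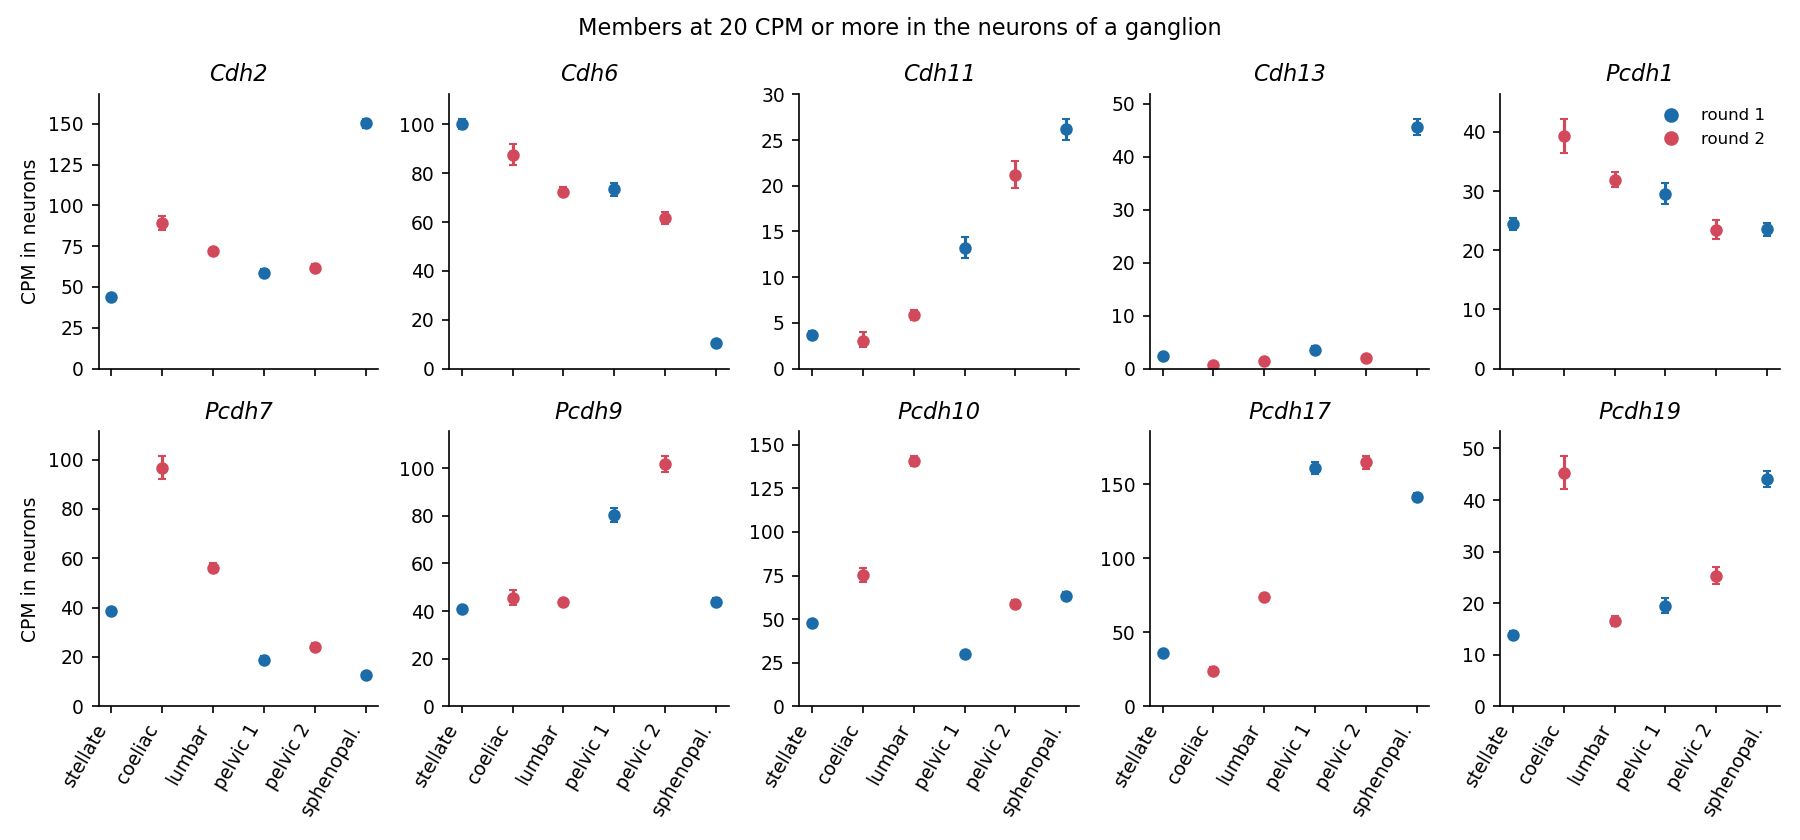
Level in neurons (CPM, axis from 0) of the 10 members that reached 20 CPM, 1 point per library with its exact 95% Poisson interval, coloured by round. Sphenopalatine is lowest for Cdh6 at 10.4 CPM and highest for Cdh13 at 45.7 CPM, and both pelvic libraries join it for Pcdh17.

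Cdh2, N-cadherin, is the type I cadherin of most neurons (ENSMUSG00000024304, chr18:16588877-16809246, minus strand). Its level in neurons was 43.9 CPM in stellate, 88.9 in coeliac, 71.8 in lumbar, 150.5 in sphenopalatine, 58.2 in pelvic_1 and 61.6 in pelvic_2. Sphenopalatine lay above all other libraries, and sympathetic and pelvic libraries overlapped. The ratio of sphenopalatine to stellate, 3.43-fold higher (95% interval 3.3 to 3.56), stayed under 4.

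Cdh6, a type II cadherin also called K-cadherin, is known in the kidney and in neural crest (ENSMUSG00000039385, chr15:13028701-13173675, minus strand). Neurons held 100.2 CPM in stellate, 87.5 in coeliac, 72.5 in lumbar, 10.4 in sphenopalatine, 73.3 in pelvic_1 and 61.6 in pelvic_2. Sphenopalatine was the low library, and the remaining 5 lay between 61.6 and 100.2 CPM. Within each round the pelvic library was below the sympathetic ones, by less than 4-fold. Sympathetic and pelvic levels overlapped only across rounds. The Cdh6 level in sphenopalatine was 9.65-fold lower (95% interval 8.97 to 10.4) than in stellate, and that in pelvic_1 was 7.07-fold higher (95% interval 6.53 to 7.66) than in sphenopalatine.

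Cdh11, a type II cadherin first described in bone forming cells (ENSMUSG00000031673, chr8:102632095-102785642, minus strand), showed another order. The levels were 3.67 CPM in stellate, 3.06 in coeliac, 5.85 in lumbar, 26.2 in sphenopalatine, 13.2 in pelvic_1 and 21.2 in pelvic_2. All 3 sympathetic libraries were lower than both pelvic libraries and sphenopalatine. Sphenopalatine was 7.14-fold higher (95% interval 6.31 to 8.11) than stellate, and pelvic_2 was 6.93-fold higher (95% interval 5.27 to 9.29) than coeliac, whereas the ratio of pelvic_1 to stellate stayed below the limit. Glial cells held 152 to 402 CPM of this gene, and glial markers summed to 28.9 to 152 CPM in the neurons of the 6 libraries. The part of glial RNA in the neuronal level was not tested.

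Cdh13, T-cadherin, had the largest ratio between sphenopalatine and stellate neurons among members at 20 CPM or more (ENSMUSG00000031841, chr8:118283733-119324921, plus strand). It was counted at 2.43 CPM in stellate, 0.612 in coeliac, 1.51 in lumbar, 45.7 in sphenopalatine, 3.52 in pelvic_1 and 2.06 in pelvic_2. The sphenopalatine value exceeded the next highest, that of pelvic_1, by a wide margin, and the other 5 libraries were all low. Against stellate it was 18.8-fold higher (95% interval 16.3 to 21.8), and pelvic_1 was 13-fold lower (95% interval 10.9 to 15.6) than sphenopalatine. A UMI of Cdh13 was found in 49% of sphenopalatine neurons (Wilson 95% interval 46.7 to 51.2%) and in 3.3% of stellate neurons. Once every neuron was reduced to 4000 UMIs these shares were 16% and 0.74%, and the share of sphenopalatine glial cells, reduced to 2000 UMIs, was 0.785%. The study lists Cdh13 among genes of the sphenopalatine ganglion from the same cells, so this value is not independent of that list. Intervals of shares and ratios cover counting error only.

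Among the delta-1 protocadherins, which carry the longer cytoplasmic tail of the delta group, Pcdh1 was the most even. Its neuronal level was 24.4 CPM in stellate, 39.3 in coeliac, 31.9 in lumbar, 23.5 in sphenopalatine, 29.6 in pelvic_1 and 23.4 in pelvic_2. No library stood apart. Pcdh7, also called NF-protocadherin and known from axon guidance (ENSMUSG00000029108, chr5:57717967-58133230, plus strand), was at 38.5 CPM in stellate, 96.7 in coeliac, 56.2 in lumbar, 12.6 in sphenopalatine, 18.9 in pelvic_1 and 23.8 in pelvic_2. The 3 sympathetic libraries were above sphenopalatine and both pelvic libraries, and pelvic_2 was 4.06-fold lower (95% interval 3.74 to 4.41) than coeliac. Pcdh9 (ENSMUSG00000055421, chr14:93013410-93890679, minus strand) was counted at 40.9 CPM in stellate, 45.6 in coeliac, 43.7 in lumbar, 43.8 in sphenopalatine, 80.4 in pelvic_1 and 102 in pelvic_2. Both pelvic libraries exceeded the other 4, by less than 4-fold. Pcdh11x, an X-linked gene, stayed low in every library, and again both pelvic libraries exceeded the other 4, with 0.932 CPM in stellate, 0.612 in coeliac, 1.01 in lumbar, 0.671 in sphenopalatine, 9.68 in pelvic_1 and 13.2 in pelvic_2.

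The delta-2 protocadherins, with a shorter tail, are known from the extension and bundling of axons. Pcdh17 (ENSMUSG00000035566, chr14:84443563-84539002, plus strand) was at 35.8 CPM in stellate, 24.1 in coeliac, 74.1 in lumbar, 141 in sphenopalatine, 161 in pelvic_1 and 165 in pelvic_2. Sphenopalatine and both pelvic libraries lay together and above the 3 sympathetic libraries, of which lumbar was the highest. Pelvic_1 was 4.5-fold higher (95% interval 4.3 to 4.7) than stellate and pelvic_2 was 6.85-fold higher (95% interval 6.21 to 7.57) than coeliac, but the ratio of pelvic_2 to lumbar did not reach 4. Pcdh10 (ENSMUSG00000049100, chr3:45378398-45435623, plus strand) was at 47.8 CPM in stellate, 75.4 in coeliac, 141 in lumbar, 63.5 in sphenopalatine, 29.9 in pelvic_1 and 58.7 in pelvic_2. Lumbar was the highest and pelvic_1 the lowest. Within each round the pelvic library was below the other ganglia, by less than 4-fold. Pelvic levels overlapped with those of other ganglia only across rounds. Pcdh19, an X-linked gene known from an inherited epilepsy, was at 13.8 CPM in stellate, 45.3 in coeliac, 16.6 in lumbar, 44 in sphenopalatine, 19.4 in pelvic_1 and 25.3 in pelvic_2. Coeliac and sphenopalatine were high, and no ratio within a round reached 4. Pcdh18 was below 1 CPM in the neurons of each library, and Pcdh8 reached 1.58 CPM in pelvic_1 and 2.74 CPM in pelvic_2.

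Members under 20 CPM in all neuronal libraries had orders of their own, which no size rule covered. Cdh4, R-cadherin (ENSMUSG00000000305, chr2:179442431-179899373, plus strand), was at 0.781 CPM in stellate, 1.33 in coeliac, 3.59 in lumbar, 1.47 in sphenopalatine, 12.8 in pelvic_1 and 12.5 in pelvic_2. Both pelvic libraries were above the rest. Pcdh15, a component of the tip links of hair cells, was at 18.2 CPM in sphenopalatine and between 0.327 and 3.67 CPM elsewhere. Cdh8 ranged from 3.22 to 16.8 CPM with the highest level in coeliac, and Cdh22 ranged from 0.552 to 14 CPM, also highest there. Cdh10 reached 11.3 CPM in sphenopalatine, Cdh15 or M-cadherin of muscle 6.5 CPM in the same library, and Cdh18 4.88 CPM in pelvic_2. Cdh7, Cdh9, Cdh12 and Pcdh20 did not reach 3 CPM in any class of any library. At this depth they were close to undetected, which sets no value for protein.

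With every neuron reduced to 4000 UMIs, a neuron showed UMIs of 1.2 members on average in stellate, 1.62 in coeliac, 1.63 in lumbar, 1.96 in sphenopalatine, 1.65 in pelvic_1 and 1.87 in pelvic_2. The share of neurons with UMIs of at least 2 members was lowest in stellate at 34.4% and highest in sphenopalatine at 60.5%. Between 1 and 41 neurons per library were shallower and were left out of these means.

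Within the pelvic ganglion, neurons were grouped with the 31 members left out of the clustering, so that no member decided a group. The 6 groups were 435 P1-like, 348 P2-like and 164 P3-like neurons, called by the marker genes of the clusters P1 to P3, and 3 unnamed groups of 108, 115 and 88 neurons led by Calca, Areg and Apoe. The Calca group passed 5 markers of the cluster P4 but stayed unnamed, since its 10 leading genes held 2 fibroblast markers, Col1a1 and Dcn, and of the P4 markers only Aldh1a2. A member was counted where it differed 4-fold from the other pelvic neurons, the same way in both libraries, at 20 CPM or more. Cells were grouped on the same counts, so this is a description with no test. By pelvic_2 alone 15 differences would be counted, and by both libraries 5. Shares of all genes are given below for both libraries only, so the 15 cannot be set against a share. Cdh4 was high in 1 group, Cdh6 was low in 3, and Pcdh9 was low in 1. No member was counted as higher in P1-like (all genes, 0.409%), P2-like (0.186%), Calca (1.16%), Areg (0.153%) or Apoe (0.747%) neurons, or as lower in P2-like (0.914%) or Apoe (0.26%) neurons.

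**Figure D2:**
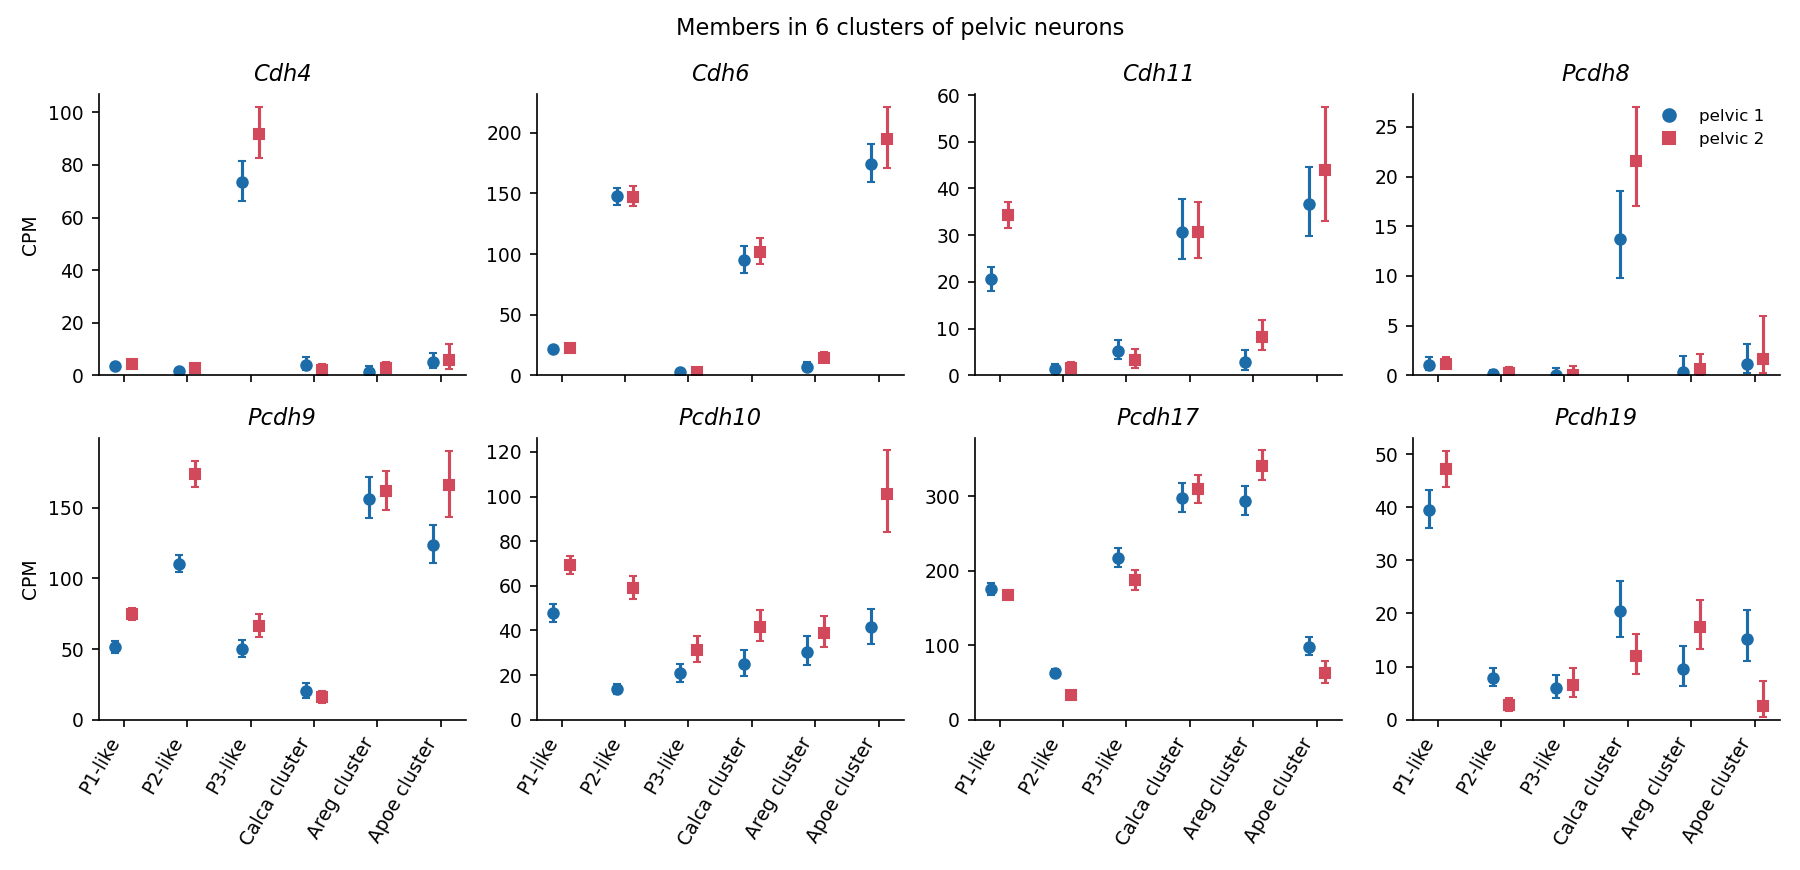
Level of 8 members in the 6 groups of pelvic neurons (CPM, axis from 0), with exact 95% Poisson intervals for pelvic_1 and pelvic_2. Cdh4 is high in P3-like neurons, at 73.5 and 91.9 CPM, where Cdh6 is at 2.7 and 2.65 CPM.

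Cdh4 in P3-like neurons was at 73.5 and 91.9 CPM in pelvic_1 and pelvic_2, against 2.82 and 3.47 CPM in the other pelvic neurons. These levels were 26 and 26.5 times higher (higher in this way, 1.19% of genes). No other group exceeded 5.81 CPM in either library. The study lists Cdh4 among markers of P3 from these cells, and it was therefore not used for naming. With neurons reduced to 4000 UMIs, 15.3% and 42.4% of P3-like neurons had a UMI of Cdh4, against 1.58% of other pelvic neurons in pelvic_1 and 0 of 316 in pelvic_2, where the gene was at 3.47 CPM at full depth.

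Cdh6 divided the pelvic neurons in the opposite way. P3-like neurons held 2.7 and 2.65 CPM, 31.4 and 25.8 times lower than the other pelvic neurons (lower in this way, 1.75% of genes). The Areg group held 7.16 and 14.4 CPM, 11 and 4.59 times lower than the rest (0.561%). P1-like neurons had 21.4 and 22.4 CPM, 4.57 and 4.17 times lower than the rest (0.596%), a difference that was no longer counted at a clustering resolution of 0.6, where 205 neurons were P1-like. The high side was formed by P2-like neurons at 148 and 147 CPM, the Apoe group at 175 and 195 CPM and the Calca group at 94.9 and 102 CPM. Each group kept its place in both pelvic libraries, although the Apoe group held 78 neurons in pelvic_1 and only 10 in pelvic_2. Glial markers summed to 712 and 589 CPM in the Apoe group, and their part in its Cdh6 level was not tested.

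Pcdh17 and Pcdh9 gave further combinations. Pcdh17 was at 298 and 309.6 CPM in the Calca group, 294 and 341 in the Areg group, 218 and 187 in P3-like and 175 and 168 in P1-like neurons, but at 62.7 and 33.5 in P2-like neurons. P2-like neurons, high in Cdh6, were thus the lowest in Pcdh17 in both libraries, and the ratios to the rest did not reach 4 in both. Pcdh9 was at 20.4 and 15.9 CPM in the Calca group, 4.2 and 6.96 times lower than in the rest (0.473%), and at 157 and 162 CPM in the Areg group. Some neurons also passed a limit on the endothelial, mural, fibroblast or macrophage marker list. The fibroblast limit was lower than the one used to call the class, and glial markers were not used. Without these neurons the Calca group held 8.70 and 10.9 CPM of Pcdh9. With the members kept in the clustering the Pcdh9 difference of this group was no longer counted. The Areg group, low in Cdh6, was high in both Pcdh9 and Pcdh17. Pcdh19 was at 39.6 and 47.1 CPM in P1-like neurons and at 7.91 and 2.72 and 5.98 and 6.62 CPM in P2-like and P3-like neurons. Pcdh11x was at 19.8 and 18.6 CPM in P1-like neurons, the highest of the 6 groups in both libraries. Cdh11 was at 1.44 and 1.65 CPM in P2-like and 20.5 and 34.2 CPM in P1-like neurons. Cdh2 was spread more evenly, between 41 and 81 CPM over all groups and libraries.

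Rare members were found in the Calca group. Cdh3, P-cadherin of epithelia, had 30 and 59 UMIs there, at 10.0 and 16.8 CPM, and 0 in all other pelvic neurons of both libraries. Pcdh8 was at 13.7 and 21.6 CPM against 0.505 and 0.749 CPM in the rest, and Cdh1, E-cadherin, at 9.02 and 5.4 against 0.415 and 0.21 CPM. These 3 levels were below 20 CPM in pelvic_1, so they were not counted. The study lists the 3 genes among markers of its cluster P4 from the same cells, and the group was left unnamed here. Markers of fibroblasts summed to 1625 and 802 CPM in the Calca group. Of its neurons 24% and 15.2% also passed the limit on another list described above, with the lower fibroblast limit. Without those neurons Cdh3 was at 13.1 and 15.8 CPM, and Pcdh8 at 17.4 and 24.1 CPM. Cdh5, in contrast, went from 6.02 and 12.8 CPM to 0.87 and 0.643 CPM.

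The transmitter classes of the pelvic ganglion allowed a test, since each was present in both libraries: 160 noradrenergic neurons, by Th, Dbh, Slc18a2 and Slc6a2, and 1068 cholinergic neurons, by Chat, Slc18a3 and Slc5a7. Counts were summed per class and library and compared by the edgeR quasi-likelihood test with the library as a block. Noradrenergic and P3-like neurons are largely the same cells, so this comparison is no second support for the group. Of 31 members 24 passed the filter on low counts, and 18 of them passed at an adjusted p under 0.05 (20.4% of all genes tested), 2 higher and 16 lower in noradrenergic neurons (all genes, 9.13% and 11.3%). The 5 glial markers were also lower there, with sums of 90.8 and 60.4 CPM against 163 and 103 CPM in cholinergic neurons, and their part in the levels of members that glial cells carry, such as Cdh11, Pcdh9 and Cdh10, was not tested. The median log2 difference of the members tested was -1.56, and that of all genes tested was 0.00372. Cdh3 and Pcdh8, counted among the 16 and in the median of the members, had no UMI in noradrenergic neurons. They passed the filter through the cholinergic sums alone and could only be called lower. Without the block 5 members were called, with Pcdh8 among them, and with DESeq2 8, without Pcdh8. Cdh3 was called in neither of these fits. Cdh4, Cdh6, Pcdh7 and Pcdh19 passed in every fit. There is 1 residual degree of freedom per gene, and the small p-values rest on the spread that edgeR pools over genes. The SE given with an edgeR difference, here and below, was derived from its F statistic. It rests on the same pooled spread and is not the observed spread of that gene alone.

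Cdh4 rose from 2.48 and 3.42 CPM in cholinergic to 70.0 and 91.9 CPM in noradrenergic neurons of pelvic_1 and pelvic_2 (log2 difference 4.75 ± 0.19, SE; edgeR adjusted p = 6.08e-137). Cdh6 was lower, at 3.17 and 2.65 CPM against 85.6 and 68.5 CPM (log2 difference -4.74 ± 0.25; edgeR adjusted p = 6.55e-78). Neither gene overlapped between the classes. Cdh22, a type II cadherin of the brain, was the other member that rose, from 1.9 and 3.15 to 10.5 and 6.62 CPM (1.79 ± 0.29 on the log2 scale; edgeR adjusted p = 2.13e-08).

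**Figure D3:**
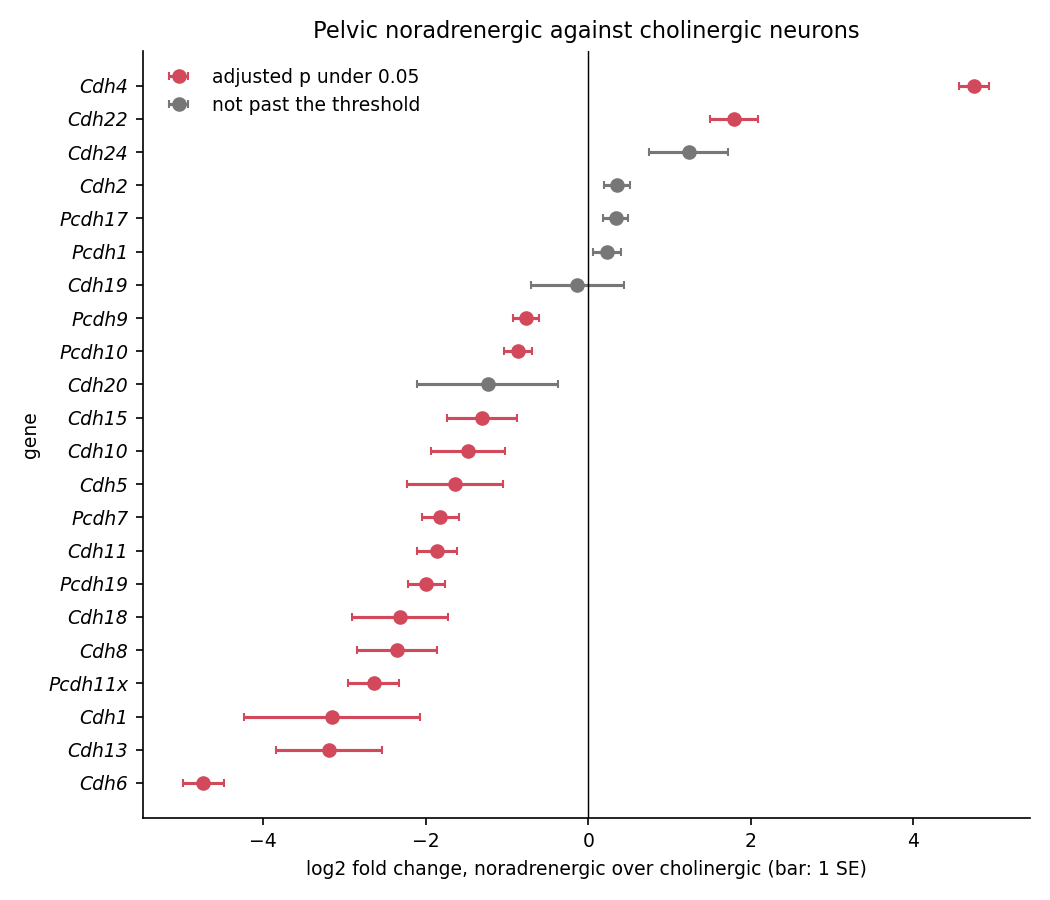
Log2 difference of pelvic noradrenergic minus cholinergic neurons for the members tested by edgeR, with SE as bars, without Cdh3 and Pcdh8, which had no UMI in noradrenergic neurons. Cdh4 lies furthest to the higher side at 4.75 and Cdh6 furthest to the lower side at -4.74.

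Of the protocadherins, Pcdh7 was at 7.54 and 5.3 CPM in noradrenergic and at 20.3 and 26 CPM in cholinergic neurons, a log2 difference of -1.82 ± 0.23 (edgeR adjusted p = 2.43e-14). Pcdh19 was at 5.75 and 6.62 against 21.6 and 27.3 CPM (-1.99 ± 0.23; edgeR adjusted p = 8.41e-17). Both were lower in each library, with no overlap. Pcdh11x (-2.64), Cdh8 (-2.35) and Cdh11 (-1.86) also fell on the log2 scale, and Pcdh9 (-0.77) and Pcdh10 (-0.87) fell by less. Cdh1, Cdh5, Cdh10, Cdh13, Cdh15 and Cdh18, each below 6 CPM in both classes, were lower too. None of these calls was held with DESeq2 or without the block, nor were those of Pcdh11x and Cdh8. Cdh8 had only 4 and 3 UMIs in noradrenergic neurons. The calls of Cdh11, Pcdh9, Pcdh10 and of Cdh22 above were held with DESeq2 but not without the block. In the Calca group Cdh5 was at only 0.87 and 0.643 CPM without neurons that also passed the limit on another list. The part of such neurons in the Cdh5 difference was not tested. Cdh3 and Pcdh8 had no UMI in noradrenergic neurons and were at least 4.08-fold and 7.29-fold lower, taking 3 UMIs over both libraries as the floor. Pcdh17, at 215 and 187 against 151 and 162 CPM, did not pass (0.34 ± 0.15; edgeR adjusted p = 0.104), nor did Cdh2 (0.35 ± 0.15; edgeR adjusted p = 0.0916).

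Neurons and glial cells of the same library were compared in all 6 libraries, with the library as a block, together with sums of the other classes. Replicates here are libraries of different ganglia. The block takes out the level of each library, so p-values rest on how far the classes vary from library to library beyond it. This spread was estimated over all classes of the shared fit and pooled over genes. Of 24 members that passed the filter, 15 were called (71.9% of all genes tested), 7 higher and 8 lower in neurons (all genes, 41.3% and 30.6%). The median log2 difference was -0.30 over the members tested and 0.18 over all genes tested. Members filtered out were Cdh3, Cdh7, Cdh9, Cdh12, Cdh18, Pcdh8 and Pcdh20.

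**Figure D4:**
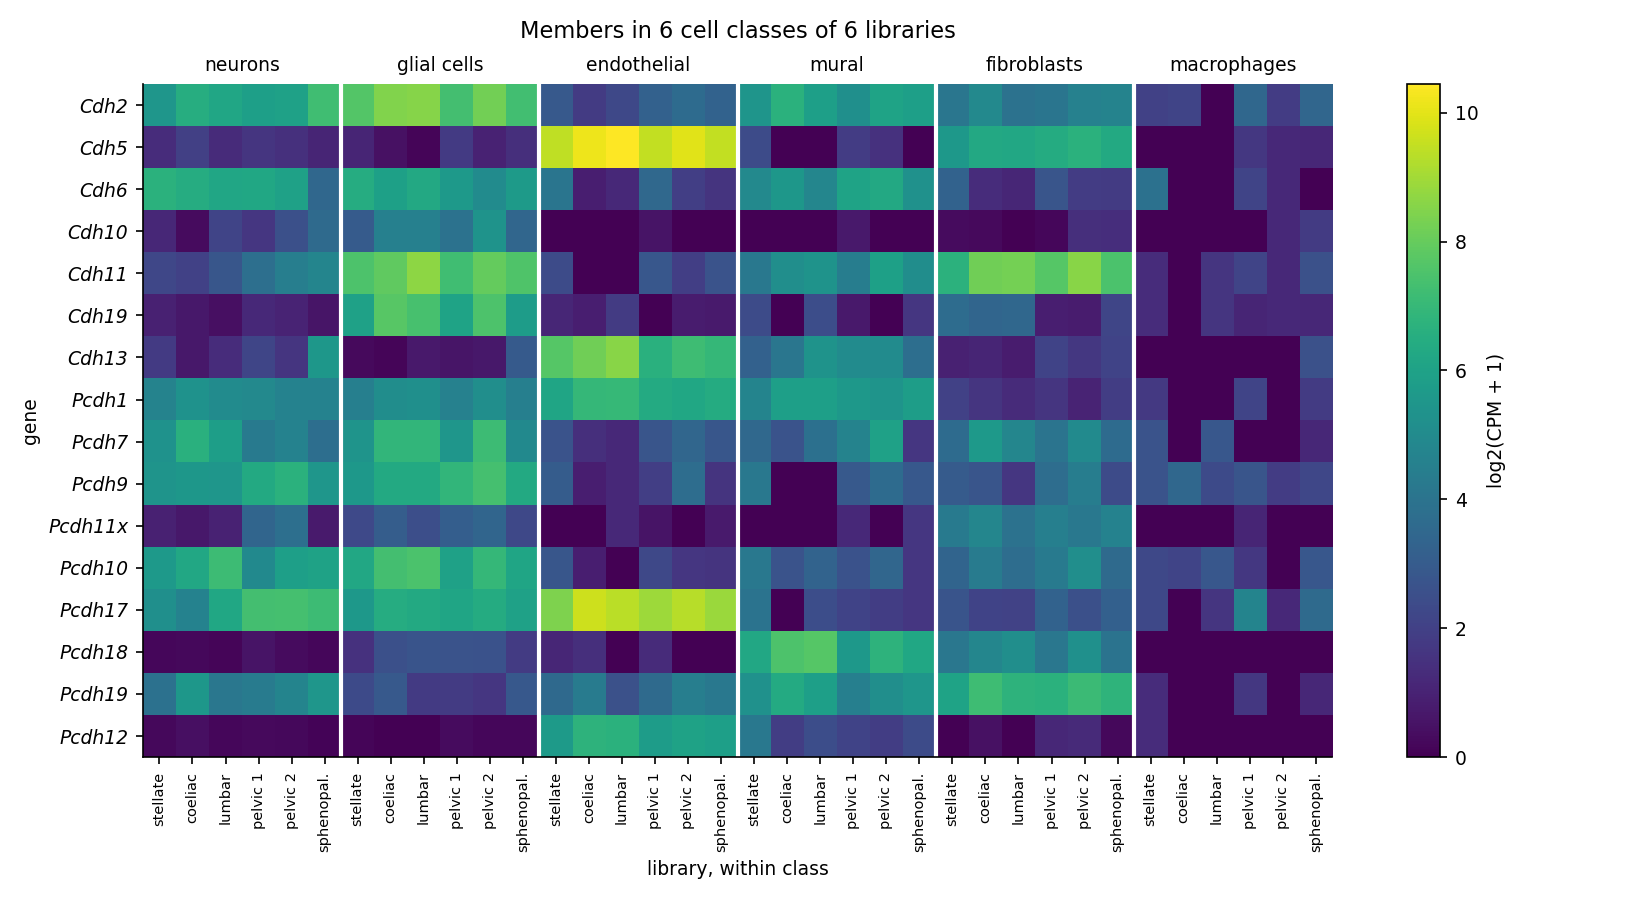
Colour map of the 16 members that reached 20 CPM in a class, as log2(CPM + 1), with 1 column per library within each of 6 cell classes. Cdh5 and Pcdh12 are highest in endothelial cells, Cdh19 in glial cells, where it ranges from 53.6 to 213 CPM, and Pcdh18 in mural cells.

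Glial cells carried 9 members at 20 CPM or more in every library: Cdh2, Cdh6, Cdh11, Cdh19, Pcdh1, Pcdh7, Pcdh9, Pcdh10 and Pcdh17. Cdh19, a type II cadherin of the Schwann cell lineage (ENSMUSG00000047216, chr1:110888326-110977584, minus strand), had a lowest, median and highest level of 53.6, 116 and 213 CPM in glial cells and 0.346, 0.791 and 1.31 CPM in neurons (log2 difference -6.82 ± 0.47; edgeR adjusted p = 3.36e-14). Cdh11 had 152, 211 and 402 CPM in glial cells and 3.06, 9.52 and 26.2 CPM in neurons (-4.21 ± 0.37; edgeR adjusted p = 9.59e-12). The ranges of both genes were far apart. Cdh2 was lower in neurons in 6 of 6 libraries, at 43.9, 66.7 and 150.5 against 153, 246 and 375 CPM (-1.48 ± 0.24; edgeR adjusted p = 1.89e-06). Cdh20 (-3.74), a neural crest cadherin, Cdh1 (-4.59), Pcdh18 (-3.96), Cdh10 (-2.48) and Cdh24 (-1.75) were also lower in neurons on the log2 scale, from glial levels of 9.0 to 18.6, 2.75 to 15.1, 1.79 to 5.47, 7.07 to 40.3 and 3.49 to 7.57 CPM. Sphenopalatine was the exception for Cdh10, which was higher in its neurons than in its glial cells.

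On the neuronal side, Pcdh19 had a lowest, median and highest level of 13.8, 22.4 and 45.3 CPM in neurons and 2.15, 3.29 and 6.48 CPM in glial cells (2.97 ± 0.23; edgeR adjusted p = 5.02e-13), with no overlap. Cdh8, a type II cadherin of synapses, had 3.22, 5.5 and 16.8 against 0.127, 0.494 and 1.6 CPM (3.79 ± 0.37; edgeR adjusted p = 1.19e-10). Pcdh15 (3.37), Cdh22 (3.20), Cdh15 (2.79) and Cdh13 (2.52) were higher in neurons of 6 of 6 libraries on the log2 scale, although their ranges overlapped. In pelvic_1 Pcdh15 was at 0.327 CPM in neurons and 0.252 CPM in glial cells, with overlapping Poisson intervals. In pelvic_2 Cdh15 was at 2.76 against 2.3 CPM, also with overlapping intervals, and its 16 glial UMIs came from 1 cell. Cdh5 was called at 0.93 ± 0.34 from levels under 3 CPM, higher in 4 of 6 libraries, and this call was lost with DESeq2 (adjusted p = 0.0624) and without coeliac or pelvic_2. Cdh6 differed by 0.29 ± 0.35 (edgeR adjusted p = 0.456) and Pcdh7 by -0.71 ± 0.34 (edgeR adjusted p = 0.0616), and neither passed. Both had large neuronal differences between ganglia, as given above.

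Glial cells were compared between ganglia by the same size rule. In none of the 6 pairs of libraries of 1 round did a member differ 4-fold (all genes, 0.848% between sphenopalatine and stellate, 0.856% between pelvic_1 and stellate, 0.498% between pelvic_1 and sphenopalatine, 0.177% between lumbar and coeliac, 0.293% between pelvic_2 and coeliac, and 0.292% between pelvic_2 and lumbar), nor did one between the pelvic libraries (2.3%), where the largest ratio was 3.16. Cdh6 in glial cells was at 86.5 CPM in stellate, 60.2 in coeliac, 78.7 in lumbar, 50.6 in sphenopalatine, 47.3 in pelvic_1 and 32 in pelvic_2. Sphenopalatine glial cells lay inside the range of the others. Pcdh7 was at 40.9 CPM in stellate, 116 in coeliac, 117 in lumbar, 29.9 in sphenopalatine, 44.3 in pelvic_1 and 140.1 in pelvic_2, with all libraries of round 2 above those of round 1.

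Endothelial cells, 28 to 185 per library, had a set of their own. Among the members 18 were called against glial cells (52.8% of all genes), 6 higher and 12 lower (all genes, 25.1% and 27.7%), with a median log2 difference of -1.50 over the members tested and -0.08 over all genes. Cdh5, VE-cadherin of endothelial junctions (ENSMUSG00000031871, chr8:104101625-104144511, plus strand), had a lowest, median and highest level of 689, 854 and 1393 CPM, against 0.105, 1.07 and 2.4 CPM in glial cells (9.83 ± 0.36 on the log2 scale; edgeR adjusted p = 3.24e-20). Pcdh12, an endothelial protocadherin, had 50.7, 61.1 and 108 against 0, 0.111 and 0.252 CPM (9.49 ± 0.53; edgeR adjusted p = 5.77e-16). No glial library came near an endothelial one for either gene. Glial levels of Pcdh12 were near 0, so it could only be called higher against them, here and in mural cells and fibroblasts. It is counted among the 6. Cdh13 was at 98.7, 177 and 385 CPM (8.25 ± 0.75; edgeR adjusted p = 5.09e-11) and Pcdh17 at 343, 554 and 809 CPM (3.08 ± 0.36; edgeR adjusted p = 1.03e-08). Pcdh1 (1.78) and Pcdh19 (1.95) rose by less. The 12 that fell included Cdh2, at 2.51, 7.59 and 11.5 CPM (-5.00 ± 0.32; edgeR adjusted p = 1.21e-14), Cdh11 (-5.97), Cdh19 (-7.03), Cdh10 (-7.39), Pcdh9 (-4.38), Pcdh10 (-5.02), Pcdh7 (-3.60) and Cdh6 (-3.38). Cdh10 had a lowest, median and highest level of 0, 0 and 0.474 CPM in endothelial cells. With levels near 0 it could only be called lower, and the size of its fall is uncertain. It is counted among the 12. The endothelial classes were set by 8 markers, none of them a member.

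Mural cells, the pericytes and smooth muscle of vessels, numbered 26 to 263 per library. Of the members 16 were called (38.5% of all genes), 5 higher and 11 lower (all genes, 17.9% and 20.5%), at a median of -1.28 over the members and -0.10 over all genes. Pcdh18 had a lowest, median and highest level of 45.9, 90.7 and 207 CPM against 1.79, 4.99 and 5.47 CPM in glial cells (4.79 ± 0.33 on the log2 scale; edgeR adjusted p = 2.31e-12). Pcdh19 had 21.6, 41.2 and 83.3 CPM (3.49 ± 0.27; edgeR adjusted p = 2.55e-12). These 2 delta-2 protocadherins were higher in 6 of 6 libraries, with no overlap. Cdh13 (4.94), Pcdh12 (5.64, at 2.68 to 16.9 CPM) and Pcdh1 (0.80) rose as well, and these 3 were also higher in endothelial cells, as was Pcdh19. The 8 endothelial markers summed to 253 to 543 CPM in mural cells, with Esam the highest at 158 to 387 CPM, against 7.99 to 33.8 CPM in glial cells. In each mural library 2 or 3 of the 8 reached 20 CPM and 1 to 4 were at 0, and Cdh5 was at 0 to 4.23 CPM. The part of endothelial RNA in these levels was not tested. Cdh6 was at 27.1 to 78.5 CPM in mural cells and did not pass (-0.13 ± 0.41; edgeR adjusted p = 0.853), whereas Pcdh17 fell (-4.19). Cdh1 had no UMI in mural cells and was at least 13.8-fold lower than in glial cells, with 3 UMIs over the 6 libraries as the floor. It could therefore only be called lower, and it enters the median of the members.

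Fibroblasts, 179 to 821 per library, had 16 members called (50.3% of all genes), 5 higher and 11 lower (all genes, 25% and 25.3%). The median was -1.18 over the members and -0.03 over all genes. Pcdh19 rose to a lowest, median and highest level of 66.5, 109 and 145 CPM (5.04 ± 0.25 on the log2 scale; edgeR adjusted p = 2.86e-17). Pcdh18 (2.75), Pcdh11x (2.11) and, from levels under 2 CPM, Pcdh12 (2.78) rose as well. Cdh11 ranged from 104 to 384 CPM in fibroblasts and from 152 to 402 CPM in glial cells, with overlap, and did not pass (0.17 ± 0.32; edgeR adjusted p = 0.694). Cdh2 fell to 14.4 to 28.8 CPM and Cdh6 to 1.2 to 8.86 CPM.

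Cdh5, known from endothelial cells, was also counted in fibroblasts. It was at 46.9 CPM in stellate, 77.6 in coeliac, 75 in lumbar, 81 in sphenopalatine, 84.8 in pelvic_1 and 101 in pelvic_2, against 0.105 to 2.4 CPM in glial cells (6.33 ± 0.33 on the log2 scale; edgeR adjusted p = 2.1e-16). All 6 libraries were above every glial library and below every endothelial one. A UMI was found in 20.2 to 56.2% of fibroblasts, in 96.4 to 100% of endothelial cells and in 0.117 to 1.26% of glial cells. The 8 endothelial markers summed to 17.8 to 82.9 CPM in fibroblasts and to 5401 to 6847 CPM in endothelial cells. For each UMI of these markers there were 1.02 to 4.22 UMIs of Cdh5 in fibroblasts, 0.105 to 0.205 in endothelial cells and 0.0132 to 0.0933 in glial cells. The fibroblast ratio was above the endothelial one in each library. In the fibroblasts with a Cdh5 UMI the endothelial markers summed to 12.2 to 81.6 CPM. Droplets called by both the fibroblast and the endothelial list had been set aside as mixed. The class rule therefore limits the marker sum of fibroblasts, whereas Cdh5 did not enter the rule. The part of endothelial RNA in the fibroblast level of Cdh5 was not tested.

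**Figure D5:**
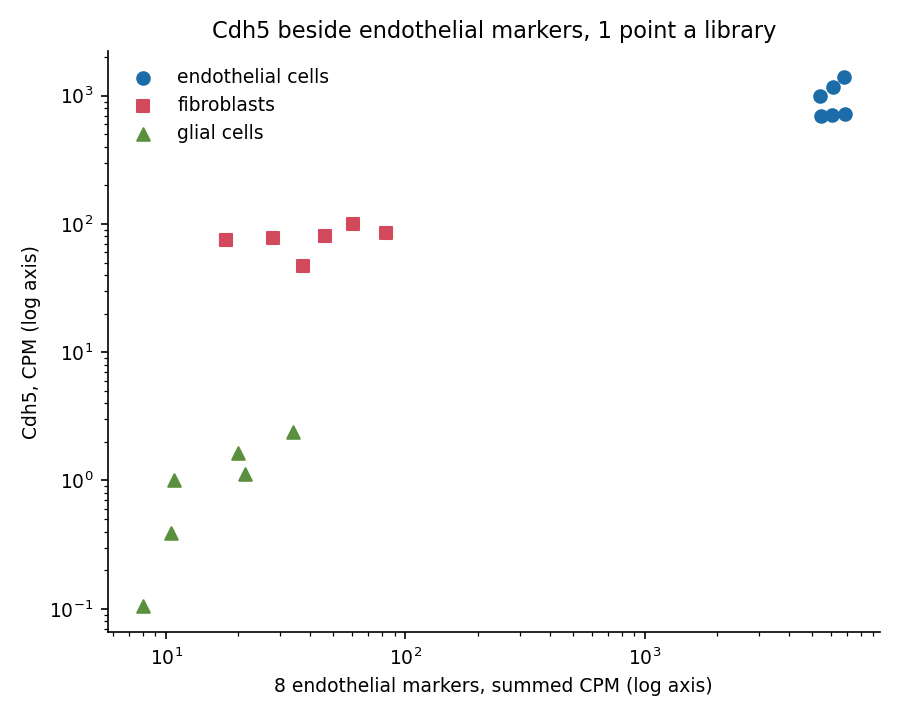
Cdh5 against the 8 endothelial markers summed (both in CPM, log axes), 1 point per library for fibroblasts, endothelial cells and glial cells. Fibroblasts have 46.9 to 101 CPM of Cdh5 at marker sums of 17.8 to 82.9 CPM.

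Macrophages were nearly without the family, with at most 1 member at 20 CPM or more in a library, Pcdh17 at 24.9 CPM in pelvic_1. They were not tested.

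The partners of cadherins at adherens junctions, a list of 16 catenins, nectins and linkers, were read in the same fits. In neurons 15 of 16 differed from glial cells (71.9% of all genes), 7 higher and 8 lower (41.3% and 30.6%). Alpha-catenins, which link the complex to actin, were divided: Ctnna2, the neuronal form, rose by 3.58 ± 0.28 on the log2 scale (edgeR adjusted p = 7.6e-13), and Ctnna1 was lower, at 2.13 to 16.9 against 246 to 432 CPM (-5.33 ± 0.32; edgeR adjusted p = 1.31e-15). In endothelial cells 13 of 16 were called (52.8% of all genes), 7 higher and 6 lower (25.1% and 27.7%), among them Jup or plakoglobin (3.27) and Afdn or afadin (3.61). Mural cells had 9 called (38.5% of all genes), 3 higher and 6 lower (17.9% and 20.5%). Fibroblasts had 13 called (50.3%), 5 higher and 8 lower (25% and 25.3%). In pelvic noradrenergic neurons 5 of 15 tested partners were called against cholinergic neurons (20.4% of all genes), 2 higher and 3 lower (9.13% and 11.3%), with Nectin3 (-2.33), a nectin that binds across the cell contact, at 5.16 and 9.0 against 26.6 and 42.8 CPM. The rule did not use position, and 7 members lie on chromosome 8 and 5 each on chromosomes 14 and 15 of GRCm38. Cdh3 and Cdh1, found together in the Calca group, are neighbours on chromosome 8, with 46.1 kb between the end of Cdh3 and the start of Cdh1.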

How the data were processed

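The authors deposited UMI counts per gene and droplet, not normalized, from Cell Ranger 6.0.1 on mm10 per the submitters' processing notes, limited to droplets called as cells, in 6 libraries with 39353313 to 113352559 UMIs each. Droplets with more than 1500 and fewer than 11000 genes and under 15% mitochondrial UMIs were retained. Class scores were means of marker genes after sctransform 0.4.2 (Seurat 5.3.0, R 4.3.3). Droplets called by the lists of several classes were set aside as mixed, and no doublet caller was run. Neurons that passed a limit on the endothelial, mural, fibroblast or macrophage list were reported beside the values. For fibroblasts this limit was lower than in the class call. Groups of pelvic neurons came from Louvain clustering (resolution 0.3, 30 principal components of 3000 genes, members left out) and were named by at least 3 markers, unless markers of another list were more frequent among the 10 leading genes. Counts were summed per class and library, where at least 10 cells were present, and tested with edgeR 4.0.16 (glmQLFit, TMM, filterByExpr, library as a block), with Benjamini-Hochberg adjustment over all genes tested. Classes of a library come from the same ganglia, and their deviations correlated between 0.44 and 0.69 across genes. Ratios have exact conditional and shares Wilson 95% intervals, which cover counting error only. DESeq2 1.42.0, no filter, no block, left-out libraries, single rounds and stricter classes were alternatives. The edgeR steps were tested on simulated data. Gene positions were read from GENCODE M21 (GRCm38) by identifier for 47 of 47 genes. All 31 members are described, with neuronal values per library for those at 20 CPM or more in neurons. Other called members are given per library, as ranges or limits, or by the log2 difference alone. Members, partner list and tests were chosen with earlier results of these data known. Protein and promoter sequences were not used here. The gene behind the Cre driver is not reported here, nor is 1 comparison among glial cells that was planned.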

Additional observations from a re-analysis of the deposited data

Results flagged for a closer look

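Among the 43 class and member combinations with 6 libraries that were examined, 2 held a library that stood far from the other 5. The gap to the nearest library was above 0.625 of the range. For 6 values from the same distribution chance alone gives about 1 in 20, so 2 of 43 is near the number that chance gives. The libraries differ in ganglion and round, so this rate is only a guide. Cdh13 in neurons was at 45.7 CPM in sphenopalatine, with 3.52 CPM in pelvic_1 as the next level, a gap of 0.936 of the range. Pcdh7 in mural cells was at 62.5 CPM in pelvic_2, with 24.2 CPM in pelvic_1 next, a gap of 0.633 of the range. Pcdh7 in glial cells of the same library was at 140.1 CPM.

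A further signal lay in droplets that no marker list called and that entered no comparison. In the 105 such cells of pelvic_2, Cdh1 was at 50.2 CPM and Cdh3 at 39.1 CPM, whereas in the named classes of that library neither exceeded 4.88 and 1.6 CPM. The neuronal class level averages over the Calca group of pelvic_2, which held Cdh3 at 16.8 CPM and, as given above, also Cdh1. The 27 cells with a UMI of Cdh1 and the 24 with a UMI of Cdh3 shared 22 cells. All 27 cells with Cdh1 also had UMIs of Epcam, Krt8 and Krt18, genes known from epithelial cells, at 569, 330.3 and 377 CPM, against 4.23, 2.54 and 0.845 CPM in the 76 cells with neither cadherin. These genes were looked up after the cadherin values were seen. In pelvic_1, 10 cells of no class had Cdh1, and none of these had a UMI of the 3 genes.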

How the results depend on the processing

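No called member changed direction under any alternative run. The counts of members called in neurons, endothelial cells, mural cells and fibroblasts against glial cells stayed within 1.5 times under all alternatives run. For noradrenergic neurons 18 members became 8 with DESeq2 and 5 without the replicate block, with 1522 and 583 instead of 2890 genes called in all; without either pelvic library no residual degrees of freedom remained and nothing was fitted. For neurons of different ganglia the 9 differences became 25 at 2-fold, 5 at a floor of 50 CPM and 6 with either pelvic library left out; for glial cells 0 became 4 at 2-fold. For pelvic groups 5 became 15 at 2-fold, 2 for shares of neurons reduced to 4000 UMIs, and 5 to 15 with 1 pelvic library left out, of which 15 without pelvic_1. With members kept in the clustering 4 remained, without Pcdh9 in the Calca group, and at resolution 0.6 Cdh6 in P1-like neurons was lost and Pcdh9 in a group led by Penk was gained. Leaving out neurons that passed the limit on another list, with the lower fibroblast limit, was an alternative chosen after seeing the data. It kept the 5 and added Pcdh19 in P1-like neurons. For ganglia and pelvic groups, shares of all genes are given at the main limits only. The counts of members at other limits therefore cannot be set against a share. The call of Cdh5 in neurons was lost with DESeq2, without coeliac, without pelvic_2, in round 1 alone and with stricter classes. DESeq2 moved the median of all genes in neurons against glial cells by -0.11 on the log2 scale. The causes of these changes were not tested. Depth limits the members under 3 CPM.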
